A study of Mus musculus with 10 samples.

Results

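Anti-Müllerian hormone (AMH), the inhibins and activins, their binding protein follistatin, and the receptors of AMH, activins and bone morphogenetic proteins (BMPs) were followed in mouse ovaries of 3 groups. Of the 55487 genes in the deposited table, 10 were taken by their symbols: Amh, Inha, Inhba, Inhbb, Fst, Amhr2, Acvr2a, Acvr2b, Bmpr2 and Bmpr1b. All 10 were among the 18956 genes that passed the filter on low counts. The groups held 4 Control ovaries from mice aged 8 weeks, 3 Aged ovaries and 3 Aged+CF ovaries, with a library for each. The older mice, Aged and Aged+CF alike, were 11 months old by the labels and somewhat younger by the methods of the study, and all mice had the C57BL/6J background. Aged+CF mice had received cell-free fat extract (CEFFE), the protein-containing liquid left after fat tissue is emulsified and centrifuged, through the tail vein in doses of 200 μL at 3 μg/μL, while Control and Aged mice received saline. Every mouse had also been injected with 10 IU of PMSG, a gonadotropin with the activity of follicle-stimulating hormone (FSH), 48 h before the ovaries were taken, so no ovary of this set was unstimulated. The question addressed was whether the genes differed with age and after CEFFE.

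Ligands of the TGF-beta superfamily act as dimers that bind type II receptors, which then activate type I receptors and, through them, the SMAD proteins. In the ovary, AMH is made by the granulosa cells of small growing follicles and restrains the recruitment of resting follicles, whereas inhibins, made by the granulosa cells of larger follicles, lower the secretion of FSH by the pituitary. Inhibins pair an alpha subunit with a beta subunit, and activins pair beta subunits with each other.

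Between 15761789 and 21318254 reads were counted on genes per ovary. Levels are given as CPM (read counts relative to the library total, scaled by TMM), as mean ± SD, and values of single ovaries are given in the order Control 31, 32, 33 and 34, Aged 31, 33 and 34, and Aged+CF 30, 32 and 34, the numbers being those of the labels. The methods of the study call the libraries biological replicates, whereas the labels number the ovaries without naming animals, so the p values measure the spread between these libraries, which may in part be technical. Fold changes, standard errors (SE) and p values are from edgeR's quasi-likelihood test fitted to all tested genes. A gene was called where its fold change reached 1.5 and its p, either unadjusted or adjusted by the Benjamini-Hochberg method, was under 0.05. Since the tissue was whole ovary, fewer cells of a type and less RNA per cell cannot be told apart.

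Marker genes of granulosa cells and oocytes were detected in every group, with none of the 8 and 10 listed genes at 0. The summed level of the granulosa list ranged from 1817 to 2709.9 CPM in Control, from 978 to 1489 CPM in Aged and from 1155 to 1542 CPM in Aged+CF. That of the oocyte list ranged from 344 to 475 CPM, from 12.2 to 98.1 CPM and from 132 to 204 CPM. At the adjusted p, 1 of the 8 granulosa genes and 9 of the 10 oocyte genes were called lower in Aged vs Control. In other marker lists all 5 luteal genes, 4 of 6 immune genes and 3 of 4 endothelial genes were called higher there. Of all tested genes 6.06% were called lower and 5% higher. The summed luteal level was 759 to 2237 CPM in Control, 3278 to 7713 CPM in Aged and 2240.2 to 6040.4 CPM in Aged+CF, and the summed immune level was 128.1 to 140.9, 183 to 464 and 169 to 199 CPM. The 6 theca genes were mixed, with 1 called higher and 2 lower at the adjusted p. Aged 34 was the lowest of all ovaries in the granulosa and oocyte lists and the highest in the immune (464 CPM) and stroma (3072 CPM) lists, and Aged+CF 32 was the lowest of its group in the granulosa and oocyte lists. The summed level of the 5 oviduct genes was 345 CPM in Control 33 and 290 CPM in Aged 34, against 1.55 to 32.2 CPM in the other ovaries. The part of these marker differences in the results was not tested.

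Among the 10 genes, Aged ovaries had lower fitted levels than Control in 9 and higher in 1, against 50.1% and 49.9% of all tested genes, with a median log2 fold change of -0.68, against -0.0005 over all tested genes. At the adjusted p, 2 of the 10 genes were called, both lower in Aged (Amhr2 and Bmpr1b), where 11.1% of all tested genes were called and 6.06% were called lower. At the unadjusted p, 5 were called, all lower (Amh, Inhba, Fst, Amhr2 and Bmpr1b), against 18.2% of all tested genes called, 9.44% lower and 8.79% higher. In 7 of the 10 genes every Aged ovary was below every Control ovary, which was so for 15.6% of all tested genes, while 27.5% had no overlap in either direction. The number called at the adjusted p was 5 without Aged 31 and 1 without Aged 33, Control 32 or Control 34. Without Aged 34 it was 3, as Amh was called along with Amhr2 and Bmpr1b. The number over the whole table moved too, from 2096 with all ovaries to 3112 without Aged 34. It was 1745 without Aged 31, 1784 without Aged 33, 1081 without Control 32 and 1090 without Control 34.

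**Figure D1:**
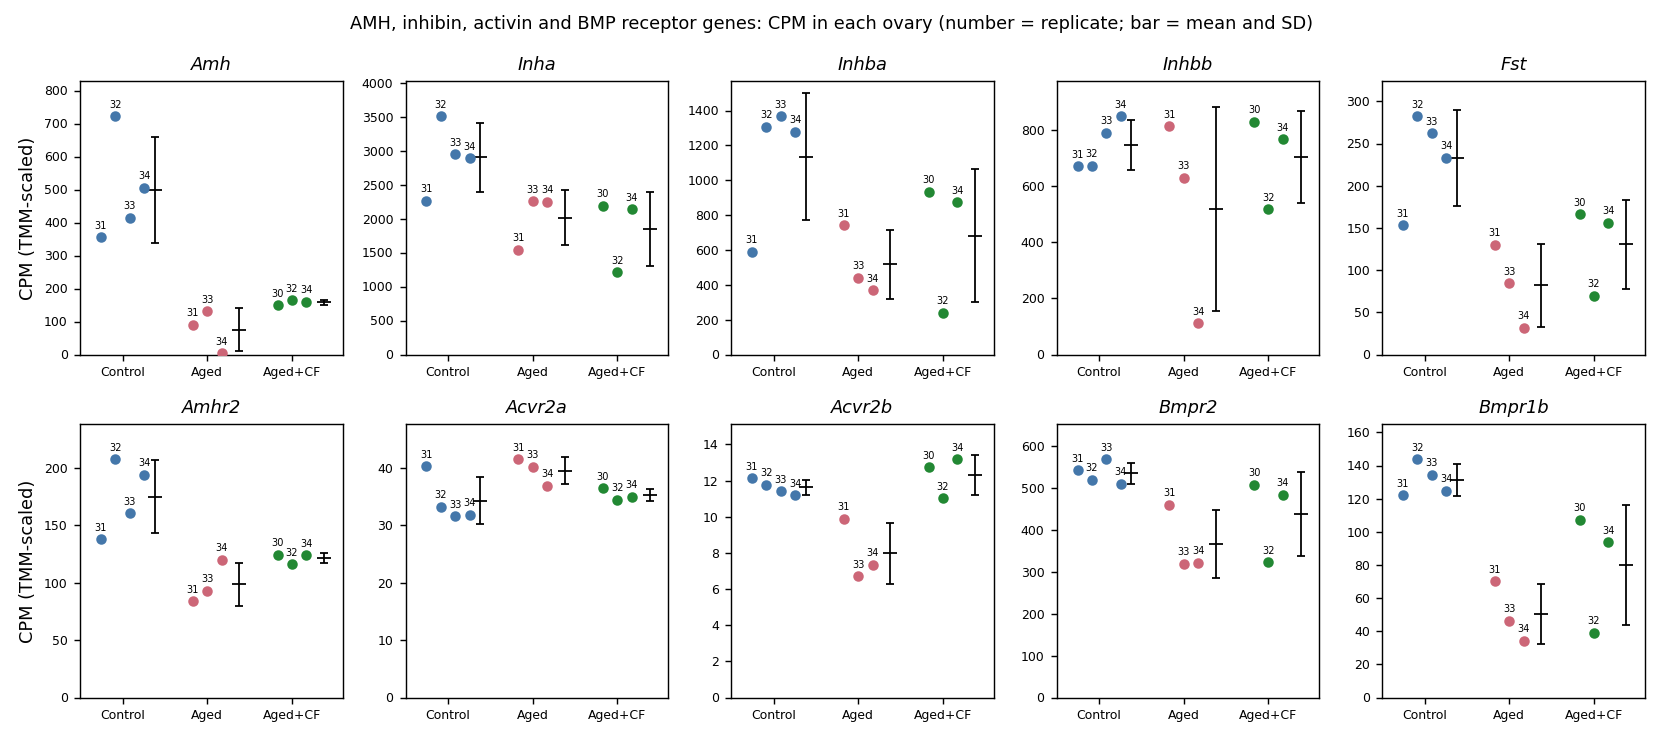
CPM (TMM-scaled, linear axes starting at 0) of the 10 genes in each ovary of Control (4), Aged (3) and Aged+CF (3), with replicate numbers beside the points and the mean ± SD as a bar. Aged 34 stands at 3.25 CPM in Amh, and Aged+CF 32 stands at 241 CPM in Inhba and 39.1 CPM in Bmpr1b, far below the other Aged+CF ovaries.

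Promoter sequences of 250 bases before the start of transcription were taken from RefSeq (GRCm38.p6) for 8 of the 10 genes, with no entry for Amh and Fst. Those of Amhr2, called lower in Aged at the adjusted p, and of Acvr2a, the only gene of the 10 with a higher fitted level in Aged, are shown 5′ to 3′. They lie at chr15:102445117-102445366 and chr2:48813859-48814108, both on the plus strand, and capitals mark the letters AAGGTCA, the half-site of the NR5A receptors.
Amhr2: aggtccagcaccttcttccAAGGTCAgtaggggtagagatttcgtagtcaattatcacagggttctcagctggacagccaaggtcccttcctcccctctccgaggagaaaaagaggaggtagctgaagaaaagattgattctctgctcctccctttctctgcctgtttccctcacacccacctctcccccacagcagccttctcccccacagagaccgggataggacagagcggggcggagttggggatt
Acvr2a: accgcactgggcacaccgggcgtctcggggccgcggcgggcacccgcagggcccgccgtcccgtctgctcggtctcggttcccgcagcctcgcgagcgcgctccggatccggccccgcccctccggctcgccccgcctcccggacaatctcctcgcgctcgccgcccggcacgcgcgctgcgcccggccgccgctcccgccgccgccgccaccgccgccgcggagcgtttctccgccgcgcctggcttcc
The half-site, searched as AAGGTCA or TGACCTT, stood in 1 of the 10 windows of these genes (Bmpr1b has several starts), that of Amhr2, where it begins 231 bases before the start, and in 4.08% of the 32851 windows of all genes. The CRE half-site (TGACG or CGTCA) was found in 17.8% of all windows and the GATA site (AGATAA or TTATCT) in 9.99%, and neither stood in any of the 10 windows. GC content was 55.2% in the window of Amhr2 and 82.0% in that of Acvr2a, against a median of 52.4% over all windows. These matches describe letters only.

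Amh (ENSMUSG00000035262, GRCm38 chr10:80805243-80807648, plus strand) encodes AMH. Its level was 355, 722, 415 and 506 CPM in the Control ovaries, 90.2, 131 and 3.25 CPM in the Aged ovaries, and 149, 165 and 160.0 CPM in the Aged+CF ovaries. The groups did not overlap in any of the 3 comparisons, with Control highest and Aged lowest, and the Aged+CF ovaries lay close together. The means were 499 ± 161 CPM in Control (n = 4), 75.0 ± 65.4 CPM in Aged (n = 3) and 158 ± 7.79 CPM in Aged+CF (n = 3). In Aged 34, Amh rested on 59 reads, against 1513 and 1863 in the other Aged ovaries.

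Aged vs Control gave a log2 fold change of -2.74 for Amh (SE 0.84, adjusted p = 0.0544), so the gene was called at the unadjusted p only. Without Aged 34 it was -2.13 with an adjusted p of 0.00253, and over all alternatives the adjusted p ranged from 0.00253 to 0.174. Aged+CF vs Aged gave a log2 fold change of 1.08 (SE 0.83, adjusted p = 0.537), and it was 0.497 without Aged 34 and 1.74 without Aged 33. Aged+CF was below Control, with a log2 fold change of -1.66 (SE 0.80, adjusted p = 0.376). That difference was called at the adjusted p when only Control and Aged+CF entered the fit (adjusted p = 0.0171) and when Aged 34 was left out (adjusted p = 0.0155). The oocyte markers were lowest in the ovary with the lowest Amh, at a summed 12.2 CPM in Aged 34, and their part in the Amh result was not tested.

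Inha (ENSMUSG00000032968, chr1:75507077-75510366, plus strand) encodes the alpha subunit, which makes a dimer with a beta subunit an inhibin. It was measured at 2266, 3505, 2946 and 2892 CPM in Control, 1542, 2253 and 2249 CPM in Aged and 2191, 1214 and 2136 CPM in Aged+CF. All ovaries of the older mice lay below the lowest Control ovary, of which Aged 33 and Aged 34 fell just short. Inha differed between Aged and Control by -0.53 on the log2 scale (SE 0.25, adjusted p = 0.174), or -0.34 without Aged 31, and was not called. Between Aged+CF and Control the log2 fold change was -0.65 (SE 0.25, adjusted p = 0.279), called at the unadjusted p, though not without Control 32 or Aged+CF 32 (-0.42 without the latter). Aged+CF vs Aged gave -0.13 (SE 0.26, adjusted p = 0.840), and 0.10 without Aged+CF 32.

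Inhba (ENSMUSG00000041324, chr13:16011851-16031621, plus strand) encodes the beta A subunit of activin A and inhibin A. Its counts may include reads of B230303A05Rik and Gm48444, which overlap it on the other strand, as counting by strand is not stated. The levels were 589, 1308, 1367 and 1278 CPM in Control, 743, 442 and 369.9 CPM in Aged and 933, 241 and 873 CPM in Aged+CF. Control 31 stood below the other Control ovaries and within the range of Aged, and Aged+CF 32 was the lowest ovary of all. The mean was 1135 ± 366 CPM in Control, 518 ± 198 CPM in Aged and 682 ± 384 CPM in Aged+CF. In Aged vs Control the log2 fold change of Inhba was -1.13 (SE 0.47, adjusted p = 0.131), called at the unadjusted p, but not without Control 32, 33 or 34 or without Aged 33 or 34 (log2 fold changes of -1.07 to -0.90). The values were 0.40 (SE 0.49, adjusted p = 0.711) in Aged+CF vs Aged and -0.73 (SE 0.47, adjusted p = 0.500) in Aged+CF vs Control. For Inhba the first was 0.802 without Aged+CF 32, 0.73 without Aged 31 and 0.087 to 0.19 without Aged 34, Aged+CF 30 or Aged+CF 34, and the second was -0.33 without Aged+CF 32.

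Inhbb (ENSMUSG00000037035, chr1:119415465-119422248, minus strand) encodes the beta B subunit of activin B and inhibin B. It was at 671, 672, 790.4 and 849 CPM in Control, 814, 631 and 112 CPM in Aged and 829, 517 and 767 CPM in Aged+CF. Aged 34 stood far below all others, while Aged 31 lay among the Control ovaries. The log2 fold change of Inhbb was -0.52 (SE 0.50, adjusted p = 0.516) in Aged vs Control, -0.97 without Aged 31 and -0.01 without Aged 34. It was 0.44 (SE 0.53, adjusted p = 0.701) in Aged+CF vs Aged, 0.90 without Aged 31, 0.29 without Aged+CF 30 and -0.05 without Aged 34. Aged+CF vs Control gave -0.08 (SE 0.49, adjusted p = 0.961), and 0.10 without Aged+CF 32, so that the direction in both comparisons of Aged+CF depended on a single library.

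Fst (ENSMUSG00000021765, chr13:114452290-114458951, minus strand) encodes follistatin, which binds activins and keeps them from their receptors. Reads of the antisense gene Gm47040 may be counted with it. Its level was 153, 282, 262 and 233 CPM in Control, 130.0, 84.6 and 31.98 CPM in Aged and 166, 69.4 and 156 CPM in Aged+CF. Every Aged ovary was below every Control ovary, whereas Aged+CF overlapped both groups. Aged vs Control gave a log2 fold change of -1.502 (SE 0.46, adjusted p = 0.0519), called at the unadjusted p. Without Aged 31 the adjusted p was 0.0375 and without Aged+CF 32 it was 0.0467, so that Fst was then called at the adjusted p too. With any other ovary left out it was 0.0567 (Control 31) to 0.121 (Aged 33). Over all alternatives it ranged from 0.00585 by DESeq2's Wald test to 0.166 with the replicate number as a block. Aged+CF vs Aged gave 0.67 (SE 0.47, adjusted p = 0.501) and Aged+CF vs Control -0.83 (SE 0.45, adjusted p = 0.417). For Fst the first was 0.26 without Aged 34, 0.44 without Aged+CF 30 and 1.14 without Aged 31, where it was called at the unadjusted p, and the second was -0.53 without Aged+CF 32.

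Amhr2 (ENSMUSG00000023047, chr15:102445367-102454633, plus strand) encodes the type II receptor that is specific for AMH. It was measured at 138, 207, 160.3 and 194 CPM in Control, 83.6, 92.8 and 119.7 CPM in Aged and 124, 116 and 124 CPM in Aged+CF. All Aged and Aged+CF ovaries lay below the lowest Control ovary. Among the Aged ovaries Amhr2 was highest in Aged 34, in which Amh was lowest. The means were 175 ± 31.6 CPM in Control, 98.7 ± 18.8 CPM in Aged and 121 ± 4.61 CPM in Aged+CF. Amhr2 fell in Aged vs Control by 1.77-fold (log2 fold change -0.82, SE 0.16, adjusted p = 0.0124). The log2 fold change in Aged+CF vs Control was -0.53 (SE 0.16, adjusted p = 0.195), and the fold of 1.44 missed the limit of 1.5. Aged+CF vs Aged gave 0.30 (SE 0.17, adjusted p = 0.407), and 0.18 without Aged 31.

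Acvr2a (ENSMUSG00000052155, chr2:48814109-48903269, plus strand) and Acvr2b (ENSMUSG00000061393, chr9:119402118-119434995, plus strand) encode the type II receptors of activins, which also bind BMPs. Acvr2a overlaps Orc4, and Acvr2b the antisense gene Gm47320, both on the other strand. Acvr2a was at 40.3, 33.3, 31.6 and 31.9 CPM in Control, 41.5, 40.2 and 36.9 CPM in Aged and 36.5, 34.5 and 34.97 CPM in Aged+CF. Its values spanned a narrow range, and all Aged ovaries were above all Aged+CF ovaries. The log2 fold change of Acvr2a was 0.21 (SE 0.11, adjusted p = 0.215) in Aged vs Control, -0.16 (SE 0.11, adjusted p = 0.496) in Aged+CF vs Aged and 0.04 (SE 0.11, adjusted p = 0.889) in Aged+CF vs Control.

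Acvr2b was at 12.1, 11.8, 11.4 and 11.2 CPM in Control, 9.90, 6.70 and 7.33 CPM in Aged and 12.7, 11.0 and 13.2 CPM in Aged+CF. Aged overlapped neither of the other groups, and Aged+CF lay around Control. The means were 11.6 ± 0.420 CPM in Control, 7.98 ± 1.69 CPM in Aged and 12.3 ± 1.13 CPM in Aged+CF. Aged vs Control gave a log2 fold change of -0.54 for Acvr2b (SE 0.16, adjusted p = 0.0441), past the adjusted p but at 1.46-fold short of the limit of 1.5. Among the alternatives the adjusted p stayed under 0.05 only without Aged 31 (0.0217) and by DESeq2's Wald test (0.0181). It was 0.0502 to 0.133 in all others. Aged+CF vs Aged gave 0.62 (SE 0.17, adjusted p = 0.169), or 1.54-fold, called at the unadjusted p only. That call was lost without Aged 33 (log2 fold change 0.51), Aged 34 (0.55) or Aged+CF 34 (0.56). Between Aged+CF and Control the log2 fold change was 0.08 (SE 0.15, adjusted p = 0.847).

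Bmpr2 (ENSMUSG00000067336, chr1:59763400-59879014, plus strand) encodes a type II receptor of BMPs, also used by the oocyte factors BMP15 and GDF9. Gm38125 overlaps it on the same strand. Its level was 542, 519, 568 and 509.7 CPM in Control, 460.2, 319.6 and 321 CPM in Aged and 507, 323 and 484 CPM in Aged+CF. All ovaries of the older mice were below all Control ovaries, which Aged+CF 30 missed narrowly. The log2 fold change in Aged vs Control was -0.54 for Bmpr2 (SE 0.18, adjusted p = 0.0684), or 1.46-fold, and without Aged 31 it was -0.71 with an adjusted p of 0.0355. Without Aged 33 (adjusted p = 0.208) or Aged 34 (0.159) the log2 fold change was -0.42. It was 0.26 (SE 0.19, adjusted p = 0.525) in Aged+CF vs Aged and -0.29 (SE 0.18, adjusted p = 0.493) in Aged+CF vs Control. Leaving out 1 Aged or Aged+CF ovary moved the first of these between 0.12 (without Aged+CF 30) and 0.44 (without Aged 31), with 0.43 without Aged+CF 32 and 0.15 without Aged 34, and the second was -0.11 without Aged+CF 32.

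Bmpr1b (ENSMUSG00000052430, chr3:141837136-142169425, minus strand) encodes the type I receptor ALK6, through which BMP15 and AMH signal. It was measured at 122, 144, 135 and 125 CPM in Control, 70.3, 46.4 and 34.4 CPM in Aged and 107, 39.1 and 93.8 CPM in Aged+CF. Control lay above all other ovaries, and Aged+CF was split, with Aged+CF 32 among the Aged ovaries and the others between Aged and Control. The means were 131 ± 9.82 CPM in Control, 50.4 ± 18.3 CPM in Aged and 80.1 ± 36.2 CPM in Aged+CF. Bmpr1b fell in Aged vs Control by 2.61-fold (log2 fold change -1.38, SE 0.33, adjusted p = 0.0235). At the adjusted p the call was lost without Control 32 (0.0599), Control 34 (0.0526) or Aged 33 (0.0714). Aged+CF vs Aged gave 0.67 (SE 0.34, adjusted p = 0.361), and was called at the unadjusted p without Aged 31 (0.97) or Aged+CF 32 (0.999). It was 0.44 without Aged 34 and 0.38 without Aged+CF 30. Aged+CF vs Control gave -0.71 (SE 0.32, adjusted p = 0.357), and -0.38 without Aged+CF 32.

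**Figure D2:**
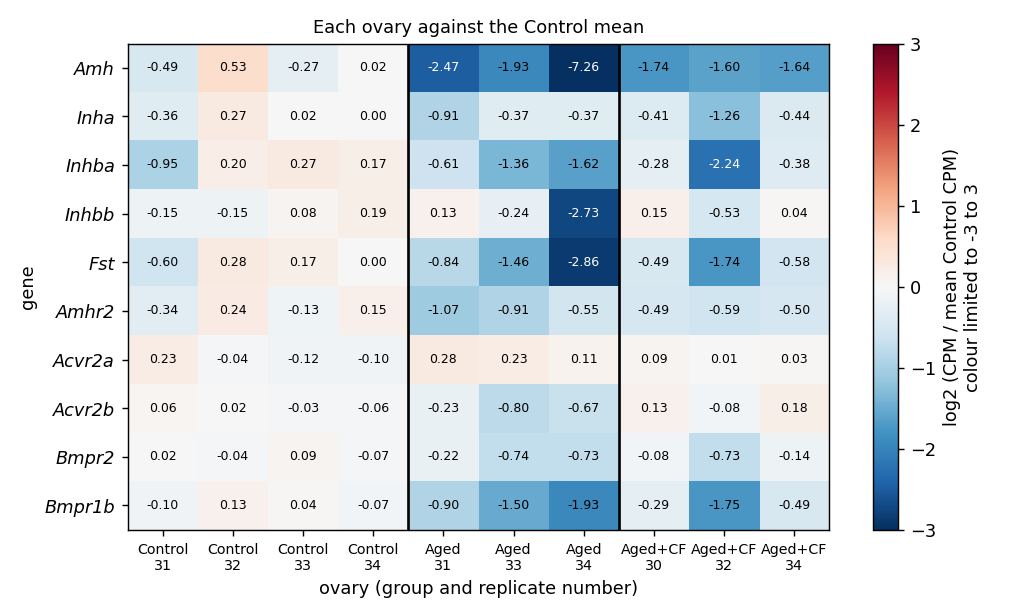
Log2 ratio of the CPM of each of the 10 genes (rows) in each ovary (columns, by group and replicate) to the mean Control CPM, with the value written in each cell and the colour limited at 3 on either side. Amh reaches -7.26 in Aged 34, where Inhbb (-2.73) and Fst (-2.86) are also low, while Inha (-0.37) and Amhr2 (-0.55) are within the range of the other ovaries of the older mice.

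In Aged+CF vs Aged, 8 of the 10 genes had a higher fitted level in Aged+CF, with a median log2 fold change of 0.42, against -0.02 over all tested genes, of which 47.4% were higher and 52.6% lower. By edgeR none of the 10 was called at the adjusted p, at which 0.00528% of all tested genes (1 gene) were called, and 1 had an unadjusted p under 0.05. DESeq2's Wald test called 1 of them at its adjusted p, Acvr2b, with 445 genes called over the whole table. At the unadjusted p and the fold limit edgeR called 1 of the 10 (Acvr2b, higher), against 7.96% of all tested genes, 3.91% higher and 4.05% lower. The groups did not overlap in 3 of the 10 genes, with Amh and Acvr2b higher and Acvr2a lower in Aged+CF, as against 18.6% of all tested genes, 10.2% higher and 8.39% lower. The unadjusted count was 3 without Aged 31 (Fst, Acvr2b and Bmpr1b), 2 without Aged+CF 32 (Acvr2b and Bmpr1b) and 0 without Aged 33, Aged 34 or Aged+CF 34. Without Aged 34 the median over the 10 genes was 0.225 and 7 were higher. EdgeR then called 556 genes of the whole table at the adjusted p, and none of the 10, so the share of all tested genes depended on this library.

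Between Aged+CF and Control, 8 of the 10 genes had a lower fitted level in Aged+CF, with a median log2 fold change of -0.59 against -0.03 over all tested genes, of which 54.1% were lower and 45.9% higher. By edgeR none was called at the adjusted p, where 0.179% of all tested genes were called (0.137% higher and 0.0422% lower), and 2 had an unadjusted p under 0.05 (Inha and Amhr2), while DESeq2 also called 0 at its adjusted p. At the unadjusted p and the fold limit 1 was called (Inha, lower), against 7.69% of all tested genes, 4.36% lower and 3.33% higher. In 5 of the 10 genes every Aged+CF ovary was below every Control ovary (Amh, Inha, Amhr2, Bmpr2 and Bmpr1b), against 12.2% of all tested genes, with 9.69% separate in the other direction. The unadjusted count was 4 without Aged 34 (Amh, Inha, Fst and Bmpr1b), 2 without Control 31, Aged 31 or Aged+CF 30, and 0 without Control 32 or Aged+CF 32. At the adjusted p edgeR called 34 genes of the whole table with all ovaries, 348 without Aged 34 and 487 with only the compared groups. Of the 10 genes, Amh was among them in the last 2 cases. The comparisons share their Control, Aged and Aged+CF ovaries and are not independent of each other.

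**Figure D3:**
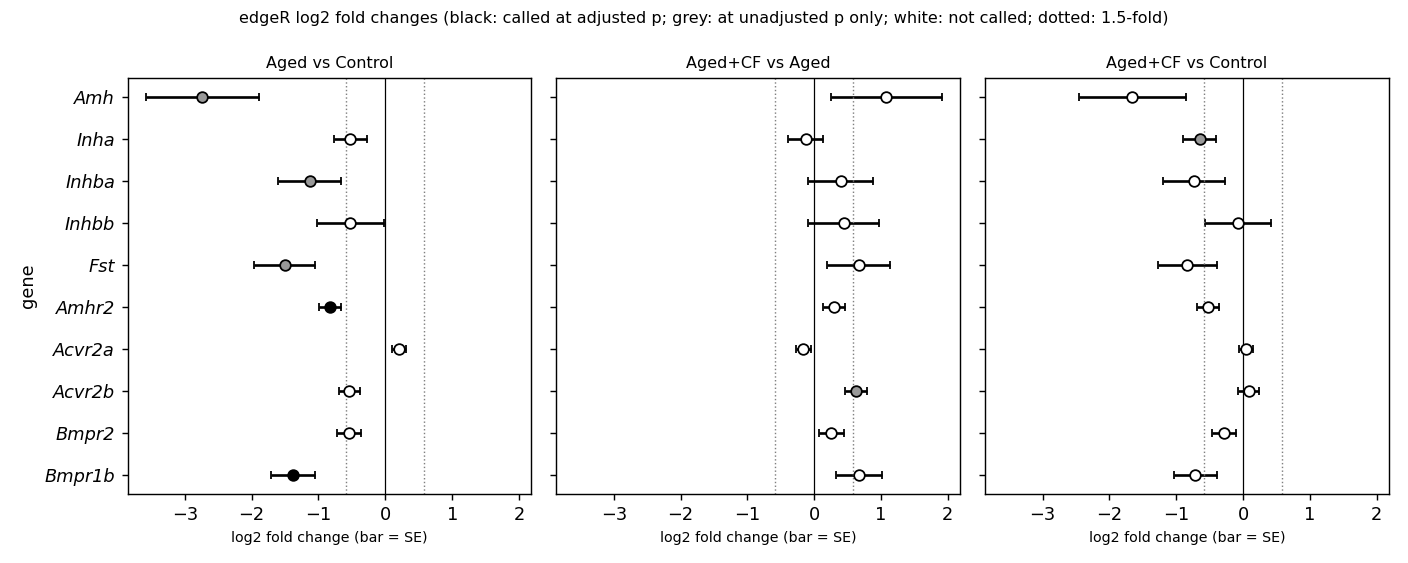
Log2 fold change ± SE of the 10 genes in the 3 comparisons (edgeR), with dotted lines at 1.5-fold and the fill showing the call. Amhr2 and Bmpr1b in Aged vs Control are the only points called at the adjusted p, and the Aged+CF vs Aged values of Amh (1.08, SE 0.83), Fst (0.67, SE 0.47) and Bmpr1b (0.67, SE 0.34) have wide bars.

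Levels of different genes were compared as FPKM, which allows for gene length. In Control, Inha had the highest level (2032 ± 339 FPKM), followed by Amh (308 ± 95.4), Inhbb (181 ± 22.4), Inhba (158 ± 51.0) and Amhr2 (52.2 ± 8.95). Below these came Bmpr2 (30.1 ± 1.77 FPKM), Fst (27.4 ± 6.56), Bmpr1b (13.4 ± 0.927), Acvr2a (5.54 ± 0.669) and Acvr2b (1.96 ± 0.0704). The neighbours Inhbb and Inhba overlapped between ovaries, as did Bmpr2 and Fst, and the other neighbours did not. In Aged, Amh (40.9 ± 34.7 FPKM) stood behind Inhbb (114 ± 80.6) and Inhba (66.2 ± 26.7), and Bmpr1b (4.70 ± 1.78) behind Acvr2a (5.85 ± 0.414), though in these pairs the ovaries overlapped. In Aged+CF, Amh (95.3 ± 3.37 FPKM) and Inhba (93.0 ± 52.8) overlapped as well. Inha was the highest and Acvr2b the lowest of the 10 genes in all 3 groups.

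Ratios between genes within an ovary do not depend on how libraries are scaled. For 6 ratios of FPKM in 3 comparisons (18 tests), groups were compared by two-sided exact permutation tests, which cannot give less than 0.0286 for 4 against 3 ovaries or 0.1 for 3 against 3, and the adjusted p is over the 18 tests. The log2 ratio of the receptor Acvr2b to Acvr2a was -1.67, -1.44, -1.41 and -1.45 for the Control ovaries, -2.01, -2.52 and -2.27 for Aged, and -1.46, -1.58 and -1.35 for Aged+CF. Aged was below both other groups without overlap, with a difference of -0.77 from Control (exact adjusted p = 0.0857), and Aged+CF was above Aged by 0.80 (exact adjusted p = 0.225). Aged+CF and Control differed by 0.03 (exact p = 0.743).

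The log2 ratio of Bmpr1b to Bmpr2 was -1.29, -0.997, -1.22 and -1.17 for the Control ovaries, -1.85, -1.93 and -2.37 for Aged, and -1.38, -2.19 and -1.51 for Aged+CF. This ratio of a type I to a type II receptor was lower in all ovaries of the older mice than in any Control ovary. The differences from Control were -0.88 in Aged and -0.52 in Aged+CF (both exact adjusted p = 0.0857), and the second was -0.28 without Aged+CF 32. The log2 ratio of Amhr2 to Amh was -2.41, -2.85, -2.42 and -2.43 for the Control ovaries, -1.16, -1.55 and 4.15 for Aged, and -1.32, -1.56 and -1.42 for Aged+CF. Aged 34 was the only ovary in which the FPKM of the receptor exceeded that of the hormone. Here the differences from Control were 3.01 in Aged and 1.10 in Aged+CF (both exact adjusted p = 0.0857), and the first was 1.17 without Aged 34.

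Of the inhibin subunits, the log2 ratio of Inhbb to Inha was -3.28, -3.91, -3.43 and -3.30 in Control and -2.93, -2.76 and -3.01 in Aged+CF, a difference of 0.58 without overlap (exact adjusted p = 0.0857). In Aged it was -2.45, -3.37 and -5.85, and the difference from Control was -0.41 (exact p = 0.771), or 0.57 without Aged 34. The log2 ratio of Inhba to Inha differed by -0.59 in Aged vs Control (exact p = 0.257) and by -0.21 in Aged+CF vs Control (exact p = 0.571), or by 0.15 without Aged+CF 32. That of Fst to Inhba differed by -0.56 in Aged vs Control (exact adjusted p = 0.147), or by -0.20 without Aged 34, and by -0.01 in Aged+CF vs Control (exact p = 0.971). Between Aged+CF and Aged all ratios but Acvr2b to Acvr2a overlapped. The differences were 0.38 for Inhba to Inha (exact p = 0.6), 0.99 for Inhbb to Inha (0.5) and 0.55 for Fst to Inhba (0.4). They were -1.91 for Amhr2 to Amh and 0.35 for Bmpr1b to Bmpr2 (both exact p = 0.3). With an ovary left out, Inhbb to Inha ranged from 0.00895 to 1.71 and Amhr2 to Amh from -2.93 to -0.0754. No ratio passed the threshold after adjustment over the 18 tests. With so few ovaries a ratio could pass it only if nearly all tests of 4 against 3 ovaries gave 0.0286. No test of 3 against 3 could pass it, so this outcome decides little.

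**Figure D4:**
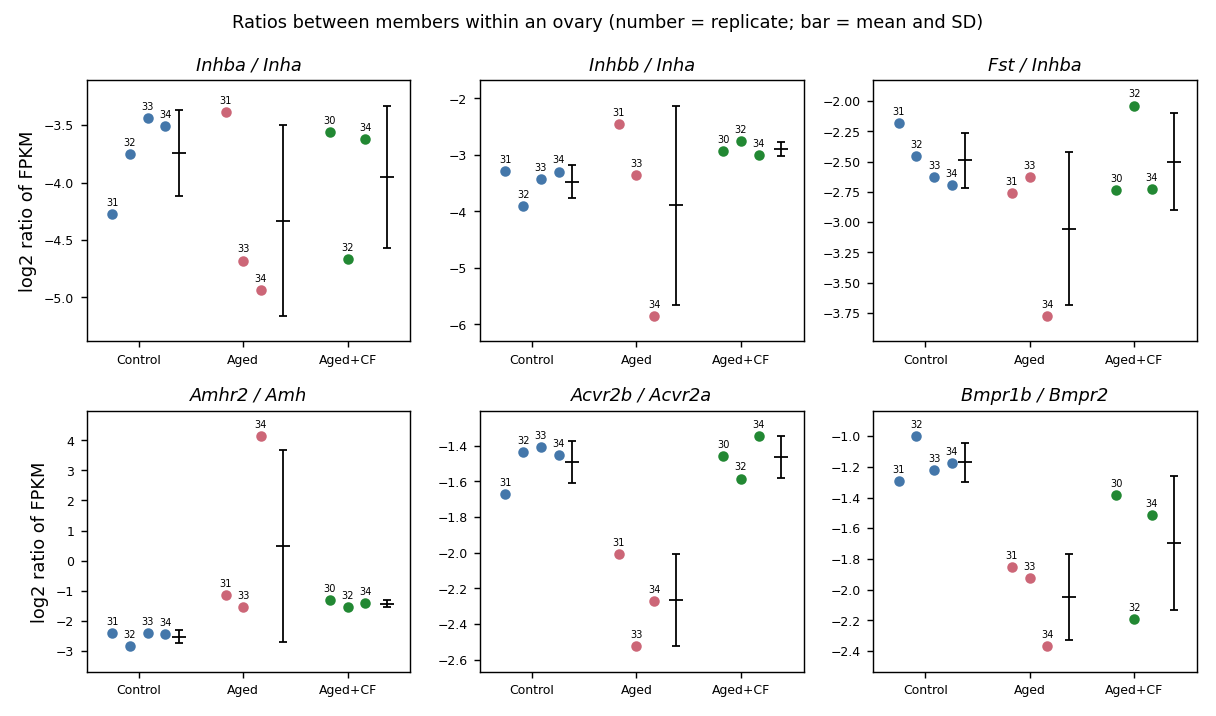
Log2 ratios of FPKM between 6 pairs of the genes in each ovary of the 3 groups, with replicate numbers beside the points and the mean ± SD as a bar (axes do not start at 0). Acvr2b / Acvr2a is lower in the 3 Aged ovaries (-2.01 to -2.52) than in all others (-1.67 to -1.35), and Aged 34 stands at 4.15 in Amhr2 / Amh.

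How the genes varied together was described by Pearson's r of log2 CPM over the 10 ovaries, which share their groups and the differences in marker levels between them. Bmpr2 and Bmpr1b had the highest r of any pair (0.967, and 0.959 without Aged 34), followed by Fst and Bmpr1b (0.947, and 0.956 without Aged 34). Amh and Amhr2 had an r of 0.521, which was 0.957 without Aged 34, and Amh and Inhbb an r of 0.874, which was 0.068 without it. Acvr2a had a negative r with all 9 other genes (-0.79 with Amhr2 to -0.12 with Inhbb).

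Among 12109 other genes with a mean of at least 5 CPM, those most like Amh over the 10 ovaries were Elobl (r = 0.996), Oas1d (0.994) and Dppa3 (0.993), the last a gene of the oocyte marker list, known for its role in the early embryo. Without Aged 34 these values were 0.982, 0.971 and 0.972. For Inhba they were Masp1 (0.946), a protease of the complement system, Sec31b (0.923), a coat protein of transport vesicles, and Unc119 (0.923). For Bmpr1b they were Dennd2c (0.985), Map3k5 (0.984), a stress-activated kinase, and Pcyt1b (0.979), an enzyme of phosphatidylcholine synthesis.

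Besides these genes, 48 others of the superfamily were listed, of which 44 were tested, and Inhbc, Inhbe, Nodal and Gdf5 did not pass the filter on low counts. In Aged vs Control 22 of the 44 were higher and 22 lower, with a median log2 fold change of 0.02. At the adjusted p, 6 were called (2 higher and 4 lower), and at the unadjusted p 8 (3 higher and 5 lower), to be read against the 11.1% and 18.2% of all tested genes given above. The number at the adjusted p was 3 without Control 32 or Control 34, 8 without Aged 34 and 0 with the replicate number as a block. Over the whole table it was 1081 without Control 32, 1090 without Control 34, 3112 without Aged 34 and 80 with the block. Of the 10 tested ligands 5 were called at the adjusted p, and of the 11 other receptors and co-receptors 1. The ligands called include Bmp5, which passed the filter on low counts through the Control ovaries and adds no support to these counts. By edgeR none of the 9 antagonists, the 10 SMADs and SMAD ubiquitin ligases and the 4 BMP target genes was called at the adjusted p. Of these genes 8 had an unadjusted p under 0.05, counted without the fold limit. DESeq2's Wald test called 1 (Smad1) at its adjusted p, with 2834 genes called over the whole table. Smad3 (log2 fold change -0.38, adjusted p = 0.0341), Smad4 (-0.29, 0.0315) and Smad7 (-0.57, 0.0426) passed the adjusted p but fell short of 1.5-fold. At the adjusted p edgeR called Smad7 without Control 33 or Aged 33, Smad6 without Control 31 and Smad1 without Aged 34. It also called Grem1 without Aged+CF 32 and with only the compared groups.

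The largest falls of the list were those of Bmp5, which rested on few reads in Aged, Bmp15 and Gdf9. Gdf9, a factor that oocytes send to granulosa cells, was at 85.1, 115, 87.0 and 98.9 CPM in Control, 22.5, 25.7 and 3.64 CPM in Aged and 36.2, 29.1 and 45.0 CPM in Aged+CF. Bmp15, its partner in the oocyte and a ligand of the receptor that Bmpr1b encodes, was at 30.1, 34.98, 30.2 and 39.8 CPM, at 8.35, 8.75 and 0.496 CPM and at 15.3, 12.9 and 17.7 CPM. Both were lowest in Aged 34, and the 3 groups were separate in both genes, which are also in the oocyte marker list. In Aged vs Control the log2 fold change was -2.48 for Gdf9 (SE 0.52, adjusted p = 0.0145) and -2.53 for Bmp15 (SE 0.64, adjusted p = 0.0277). Between Aged+CF and Aged it was 1.09 for Gdf9 (SE 0.52, adjusted p = 0.325) and 1.39 for Bmp15 (SE 0.65, adjusted p = 0.320). Without Aged 34 the latter values were 0.59 and 0.82, the adjusted p of Bmp15 being 0.0435. In Aged vs Control the call of Bmp15 was lost without Aged 31 (adjusted p = 0.0507), Control 32 (0.0642) or Control 34 (0.0658).

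Bmp5, a BMP ligand, had a mean of 1.88 ± 0.201 CPM in Control and of 0.294 ± 0.162 CPM in Aged and was called lower (log2 fold change -2.67, SE 0.42, adjusted p = 0.00656), with 2 to 7 reads per Aged ovary. It passed the filter on low counts through the Control ovaries, and did not pass it when only Aged and Aged+CF entered the fit, so its fall supports no statement about the list. Tgfb3, a TGF-beta ligand, was also called lower (log2 fold change -0.66, SE 0.18, adjusted p = 0.0379), but between Aged+CF and Aged it was called higher at the unadjusted p (0.63, SE 0.19, adjusted p = 0.195), a call lost without Aged 33. The first call was lost with any of the Control or Aged+CF ovaries left out (adjusted p of 0.0508 to 0.0962) and without Aged 33, where the log2 fold change was -0.41. Bmp7 and Eng were called higher in Aged. Bmp7, another BMP ligand, stood at 35.1, 40.9 and 8.82 CPM in Aged against 11.1, 8.54, 8.72 and 9.22 CPM in Control, so that Aged 34 lay within the Control range (log2 fold change 1.59, SE 0.42, adjusted p = 0.0311, and 2.05 without Aged 34). Its adjusted p was 0.0851 without Aged 31, 0.0964 without Aged 33 and 0.0549 to 0.0820 without a Control ovary. Eng, a co-receptor of endothelial cells, had a log2 fold change of 0.64 (SE 0.09, adjusted p = 0.00497). The 4 endothelial markers had a summed level of 274 to 350.3 CPM in Control and 393 to 504 CPM in Aged, and their part in the result for Eng was not tested.

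Of the 44 genes, 31 were higher and 13 lower in Aged+CF vs Aged, with a median log2 fold change of 0.07. Of all tested genes 47.4% were higher and 52.6% lower, with a median of -0.02. By edgeR none was called at the adjusted p, 5 had an unadjusted p under 0.05 and 3 were called at the unadjusted p (against 7.96% of all tested genes), while DESeq2 called 1 at its adjusted p (Id1). Over the whole table DESeq2 called 445. Without Aged 34 edgeR called 3 of the 44 at the adjusted p (Bmp15, Tgfbr3 and Smad1) and 6 at the unadjusted p. Of all 19342 genes then tested, 556 were called at the adjusted p and 2360 at the unadjusted p. Besides Tgfb3, the genes called at the unadjusted p with all ovaries were Id1 and Id4, transcriptional regulators that BMP signalling induces. Id1 was at 37.996, 96.2 and 52.7 CPM in Aged and 29.6, 25.6 and 26.2 CPM in Aged+CF, without overlap (log2 fold change -1.20, SE 0.32, adjusted p = 0.171), and the value was -0.74 without Aged 33. For Id4 the log2 fold change was -0.68 (SE 0.27, adjusted p = 0.262), with the call lost without Aged 34 (-0.30) or Aged+CF 32 (-0.53).

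Of the type I receptors of BMPs and AMH besides ALK6, Acvr1 (ALK2) had a log2 fold change of 0.55 in Aged vs Control (SE 0.20, adjusted p = 0.0946), or 1.47-fold, and was not called. Bmpr1a (ALK3) was at 148 ± 10.1 CPM in Control, 159.6 ± 6.48 CPM in Aged and 175 ± 7.21 CPM in Aged+CF, with a log2 fold change of 0.10 in Aged vs Control (SE 0.08, adjusted p = 0.420). Tgfbr3, which encodes the co-receptor betaglycan that helps inhibins to block activin receptors, was at 183 ± 22.0, 169 ± 72.2 and 214 ± 26.2 CPM, with a log2 fold change of -0.12 in Aged vs Control (SE 0.24, adjusted p = 0.779). Between Aged+CF and Control, 3 of the 44 genes were called at the unadjusted p (Bmp7 higher, Bmp5 and Gdf9 lower), against 7.69% of all tested genes, and 10 had an unadjusted p under 0.05. By edgeR none of the 44 passed the adjusted p there, and DESeq2 called 3 (Bmp5, Bmp7 and Tgfb1), with 509 genes called over the whole table. Without Aged 34 edgeR called 4 (Gdf9, Bmp15, Bmp5 and Bmp7), with 348 over the whole table. The counts that include Bmp5 carry the limit given for it above.

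**Figure D5:**
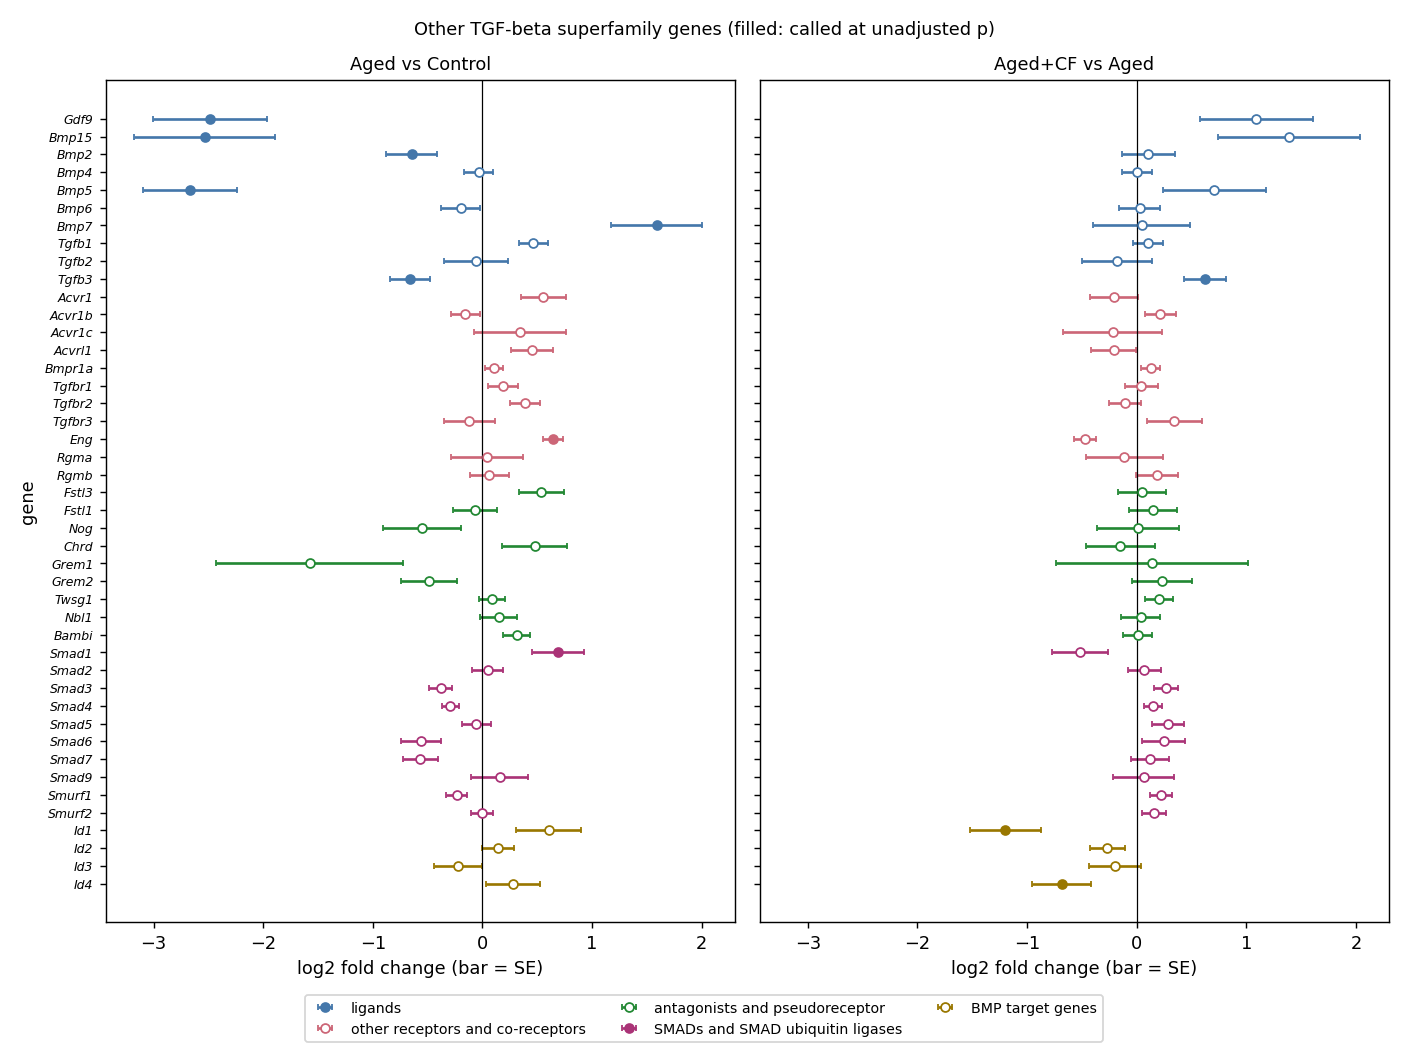
Log2 fold change ± SE (edgeR) of the 44 tested genes of the superfamily list, for Aged vs Control on the left and Aged+CF vs Aged on the right, coloured by role, on the same axis, with filled points for genes called at the unadjusted p. The ligands Gdf9 (-2.48), Bmp15 (-2.53) and Bmp5 (-2.67) lie farthest to the left in Aged vs Control, and Id1 (-1.20) in Aged+CF vs Aged. Bmp5 had few reads in Aged and passed the filter on low counts through the Control ovaries.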

How the data were processed

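Whole-ovary RNA-seq of 10 libraries was analysed. The deposited read counts per gene had been made by the authors, and the submitters' processing notes name TopHat, Cufflinks 2.1.1 and GRCm38.p4. The counting tool, its annotation and its use of strand are not given in the sources used here. The deposited FPKM values had been made by the authors from these counts, gene length and library total, and served for levels and ratios between genes. Gene positions were taken from the GENCODE annotation on GRCm38. Library totals were 15761789 to 21318254 counts, which sets the precision of genes with few reads. Within each group no library was a duplicate of another, and libraries of different groups were not compared for this. The labels name no batch.

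Counts were filtered with filterByExpr, scaled by TMM and fitted in edgeR 4.0.16 (R 4.3.3) with all 10 ovaries, a mean for each group and the quasi-likelihood F test, with Benjamini-Hochberg adjustment over all tested genes. Unless an alternative is named beside it, an unadjusted or adjusted p of a gene is from this edgeR fit. For counts of genes with an unadjusted p under 0.05 alone, without the fold limit, no share of all tested genes was taken. Such counts are description only. The code was tested on simulated counts. Ratios were compared by exact permutation tests. Besides the 10 genes, the rule named up to 3 of the largest rises and falls of the superfamily list among genes called (at the adjusted p, or at the unadjusted p in Aged+CF vs Aged), with Gdf9, Bmp15, Tgfbr3 and Bmpr1a in any case. It also named the 3 genes with the highest Pearson's r to Amh, Inhba and Bmpr1b (prior count 2, mean of at least 5 CPM, no clone or model names). Other genes that make up a small count, such as Tgfb3 in Aged vs Control or Smad1, were named after their values were seen. The genes and lists were chosen with earlier results of these data known. Alternatives were no filter on low counts, DESeq2 1.42.0 size factors and Wald test, the compared groups only, the replicate number as a block, and each ovary left out, and for ratios medians and counts without length.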

Additional observations from a re-analysis of the deposited data

Results flagged for a closer look

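In groups of 4 ovaries, the gap between an extreme ovary and its nearest neighbour was divided by the range of the group, and a share above Dixon's critical value for a group of 4 was taken as unusual. This was so for 3 of the 16 values tested, where chance gives about 1 in 20. Only Control had 4 ovaries, so all 16 values were of Control. Aged and Aged+CF, with 3 ovaries each, were not tested, so the flags do not compare Control with these groups. For the CPM of Inhba the share was 0.886, with Control 31 at 589 CPM below the other Control ovaries at 1278 to 1367 CPM. For the log2 ratio of Amhr2 to Amh it was 0.96, with Control 32 at -2.85 and the others between -2.43 and -2.41. For the log2 ratio of Acvr2b to Acvr2a it was 0.843, with Control 31 at -1.67 and the others between -1.45 and -1.41. In this last ratio Control 31 stayed above every Aged ovary.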

How the results depend on the processing

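The count of the 10 genes called in Aged vs Control at the adjusted p (2) was 4 by DESeq2's Wald test, 0 with the replicate number as a block and 1 to 5 with an ovary left out. Over the whole table the count (2096) was 2834 by DESeq2's test, 80 with the block and 1081 to 3112 with an ovary left out. The adjusted count in Aged+CF vs Aged (0) was 1 by DESeq2, and the unadjusted count (1) was 0 to 3 with an ovary left out. The adjusted count in Aged+CF vs Control (0) was 1 with only the compared groups and 0 to 1 with an ovary left out. The unadjusted count there (1) was 2 without a filter, by DESeq2 and with the replicate block, 4 with only the compared groups and 0 to 4 with an ovary left out. Of the 44 other superfamily genes, the unadjusted count in Aged+CF vs Aged (3) was 5 without a filter and by DESeq2, and 2 to 6 with an ovary left out. In Aged+CF vs Control it (3) was 5 with DESeq2 size factors, by DESeq2's test and with the replicate block, 6 with only the compared groups and 3 to 6 with an ovary left out. With an ovary left out, the unadjusted count over the whole table was 1170 to 2360 in Aged+CF vs Aged. In Aged+CF vs Control it was 859 to 2000. Leaving out an ovary moved the log2 fold change of Inha in Aged+CF vs Aged from -0.30 to 0.10, and that of Inhbb from -0.053 to 0.90 in Aged+CF vs Aged and from -0.19 to 0.10 in Aged+CF vs Control, where it was 0.15 with the replicate block. Apart from these 4 reversals, 431 values of single genes under an alternative kept their direction and side of the threshold, 10 passed it newly and 5 no longer did.

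Of the ratios taken as differences of medians, Inhba to Inha (0.0093) and Acvr2b to Acvr2a (-0.015) reversed in Aged+CF vs Control. The differences of medians in Aged vs Control were 1.27 for Amhr2 to Amh, -0.83 for Acvr2b to Acvr2a and -0.73 for Bmpr1b to Bmpr2. In Aged+CF vs Control they were 0.43 for Inhbb to Inha, 1.01 for Amhr2 to Amh and -0.32 for Bmpr1b to Bmpr2, and none of these passed the threshold. With an ovary left out, the log2 ratios in Aged vs Control ranged from -1.13 to 0.57 for Inhbb to Inha, from 1.17 to 4.03 for Amhr2 to Amh, from -0.91 to -0.65 for Acvr2b to Acvr2a and from -0.98 to -0.72 for Bmpr1b to Bmpr2. In Aged+CF vs Control they ranged from -0.40 to 0.15 for Inhba to Inha, from 0.44 to 0.65 for Inhbb to Inha, from -0.24 to 0.11 for Fst to Inhba, from 0.99 to 1.16 for Amhr2 to Amh, from -0.031 to 0.089 for Acvr2b to Acvr2a and from -0.68 to -0.28 for Bmpr1b to Bmpr2. The exact test of a ratio has few arrangements, so a p over the threshold with fewer ovaries says nothing of stability.

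The deviations of same-numbered ovaries from their group means correlated between -0.185 and 0.153, which gave no sign of pairing. So few pairs cannot exclude a shared day of processing. With the number as a block, 80 genes of the whole table were called in Aged vs Control at the adjusted p, against 2096 without it. The adjusted p was then 0.0504 for Amhr2 and 0.0843 for Bmpr1b. The block also leaves few degrees of freedom for the spread in 10 libraries. The cause of the other changes was not tested. Depth limits Bmp5, with 2 to 7 reads per Aged ovary, and Amh in Aged 34, with 59.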
